A study of Mus musculus with 25 samples.

Results

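A family of 9 genes of retinoid metabolism and retinoid response was measured in sorted mouse lung mesenchymal cells during bleomycin-induced fibrosis, in mice with and without a deletion of the death receptor gene Fas in Col1a1-expressing cells. The 9 genes were Rbp4, Stra6, Crabp1, Adh1, Aldh1a1, Aldh1a2, Aldh1a3, Cyp26b1 and Rarb, of 47729 genes in the bulk count table. They were picked as a family, and Adh1 and Cyp26b1 were also picked for their week 3 values: Adh1 because it differed between genotypes and Cyp26b1 because it differed after bleomycin. The week 3 values of the family, against naive and between genotypes, are therefore a description without a test.

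All mice carried the Col1a1-Cre-ERT2 transgene and floxed Fas (Fas fl/fl), so that Cre acts where the Col1a1 promoter is active, and only after tamoxifen. Fas-/- mice had received tamoxifen and Fas+/+ mice corn oil during the weeks that followed intratracheal bleomycin, so the deletion and the drug cannot be told apart. Naive mice of the same strain received no bleomycin. Lung cells were sorted as lineage negative (Lin-), that is, without the leukocyte marker CD45, the endothelial marker CD31 and the epithelial marker CD326. Bulk RNA-seq held 20 libraries in 5 groups of 4 (naive, and Fas+/+ and Fas-/- at 3 and at 6 weeks). Single-cell RNA-seq (scRNA-seq) added a library for each of the 5 conditions, with the cells of 4 mice pooled in it. The question put to these genes was whether their levels followed bleomycin, time or Fas deletion.

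Retinol (vitamin A) travels in blood bound to Rbp4, and Stra6 is a membrane receptor that takes retinol from Rbp4 into cells. Inside the cell, alcohol dehydrogenases such as Adh1 oxidize retinol to retinaldehyde, and the retinaldehyde dehydrogenases Aldh1a1, Aldh1a2 and Aldh1a3 oxidize retinaldehyde to retinoic acid. Crabp1 binds retinoic acid in the cytoplasm, Cyp26b1 breaks it down, and Rarb is a nuclear receptor for it and is also a classical retinoic acid target gene. Lung lipofibroblasts are known to store retinoids, and retinoic acid is known for its part in the formation of alveoli.

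Promoter sequence was taken from RefSeq windows of 250 bases before to 50 bases after each start site (GRCm38.p6). Of the members, 8 matched, with 13 windows in all, and Aldh1a3 is named only. The windows were searched on both strands for direct repeats with 1, 2 or 5 bases between them. The 4 repeat units searched have 6 bases each and are the kind that retinoic acid receptors bind. The first is AGGTCA, another unit is AGTTCA, a further unit is GGGTCA and the last unit is GGTTCA, and any unit could pair with any other. Of the 13 member windows only that of Rarb held such a pair, with 5 bases between the repeats, a spacing found in 32 of 32851 RefSeq windows (0.1%). Any of the 3 spacings was found in 0.59% of the windows. The windows counted leave out a chromosome on which no member lies. No match in a window says only that these letters are not in it. The Rarb stretch lies at chr14:16575506-16575535 on the minus strand, from 59 to 30 bases before the RefSeq start and inside an exon of longer Rarb transcripts in GENCODE vM21. It is shown because it is the 1 match among the members, and the repeats are in capitals:
Rarb: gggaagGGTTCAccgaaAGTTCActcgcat
The stretches from 250 to 101 bases before the RefSeq starts of Adh1 (chr3:138277335-138277484, plus strand, within the longer Adh1 gene of GENCODE vM21 but in no exon) and Cyp26b1 (chr6:84593911-84594060, minus strand, outside annotated genes) are shown because these genes gave the week 3 differences by which the family was picked, and CpG dinucleotides are in capitals, 2 in Adh1 and 3 in Cyp26b1:
Adh1: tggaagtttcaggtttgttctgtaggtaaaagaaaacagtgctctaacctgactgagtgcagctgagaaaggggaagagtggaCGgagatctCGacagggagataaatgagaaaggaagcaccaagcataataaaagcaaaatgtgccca
Cyp26b1: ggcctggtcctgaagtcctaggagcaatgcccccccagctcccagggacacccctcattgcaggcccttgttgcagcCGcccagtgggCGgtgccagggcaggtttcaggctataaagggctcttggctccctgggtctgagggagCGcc

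Bulk libraries held 11819700 to 25189096 counts, no library was a copy of another, and 15773 genes passed the filter on low counts, all 9 members among them. Levels are given as counts per 1000000 counts of a library (CPM) after TMM normalization. This adjusts library sizes and leaves differences in cell composition between libraries in place. Fas itself, counted over the whole gene, ran from 26.2 to 57.7 CPM in Fas+/+ and from 34.4 to 64.9 CPM in Fas-/- libraries after bleomycin. The deleted exon is not resolved by gene counts, so this checks nothing about the deletion. In its single-cell data the paper still found that exon in a part of the Fas-/- cells, a larger part at week 6 than at week 3. Markers of cells that the sort should remove were not absent. At week 6 the summed CPM of 7 epithelial markers separated the genotypes, at 500 to 1450 in Fas+/+ and 117 to 371 in Fas-/-. It ran from 26.9 to 117 in naive libraries and overlapped between genotypes at week 3 (178 to 687 and 247 to 425). The sum of 6 immune markers was 128 in week 6 Fas+/+ replicate 2, against 3.91 to 8.77 in the rest of its group. The part of these cells in the week 6 differences was not tested. The summed CPM of 6 blood endothelial markers ran from 118 to 332 in naive, from 1751 to 6872 in week 3 Fas+/+, from 464 to 6321 in week 3 Fas-/-, from 343 to 1302 in week 6 Fas+/+ and from 69.8 to 2030 in week 6 Fas-/- libraries, and 5 red cell markers summed to 2977 to 9583 in naive libraries against 17.1 to 235 after bleomycin. Week 3 Fas+/+ replicate 1 and week 3 Fas-/- replicate 4 stood apart, with the highest endothelial sums (6872 and 6321) and the lowest sums of 8 profibrotic fibroblast markers within their groups (14010 and 24780, against 47040 to 68370 in the other week 3 libraries).

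Per kilobase of exon, the order of the levels in naive libraries was Adh1 (181 ± 21.7 CPM per kb, SD, n = 4), Aldh1a1 (162 ± 17.8), Aldh1a2 (46.1 ± 14.1), Rbp4 (33.6 ± 8.26), Crabp1 (3.51 ± 1.03), Aldh1a3 (2.05 ± 0.647), Cyp26b1 (0.753 ± 0.230), Rarb (0.594 ± 0.169) and Stra6 (0.222 ± 0.184). The neighbours Adh1 and Aldh1a1 overlapped in their libraries, as did Aldh1a2 and Rbp4, Crabp1 and Aldh1a3, Cyp26b1 and Rarb, and Rarb and Stra6. The family thus fell into an abundant set of Adh1, Aldh1a1, Aldh1a2 and Rbp4 and a scarce set of the other members. At week 3 in Fas+/+ mice Cyp26b1 stood at 7.43 ± 1.21 CPM per kb, and Adh1 and Aldh1a1 at 93.4 ± 9.82 and 68.9 ± 20.1.

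**Figure D1:**
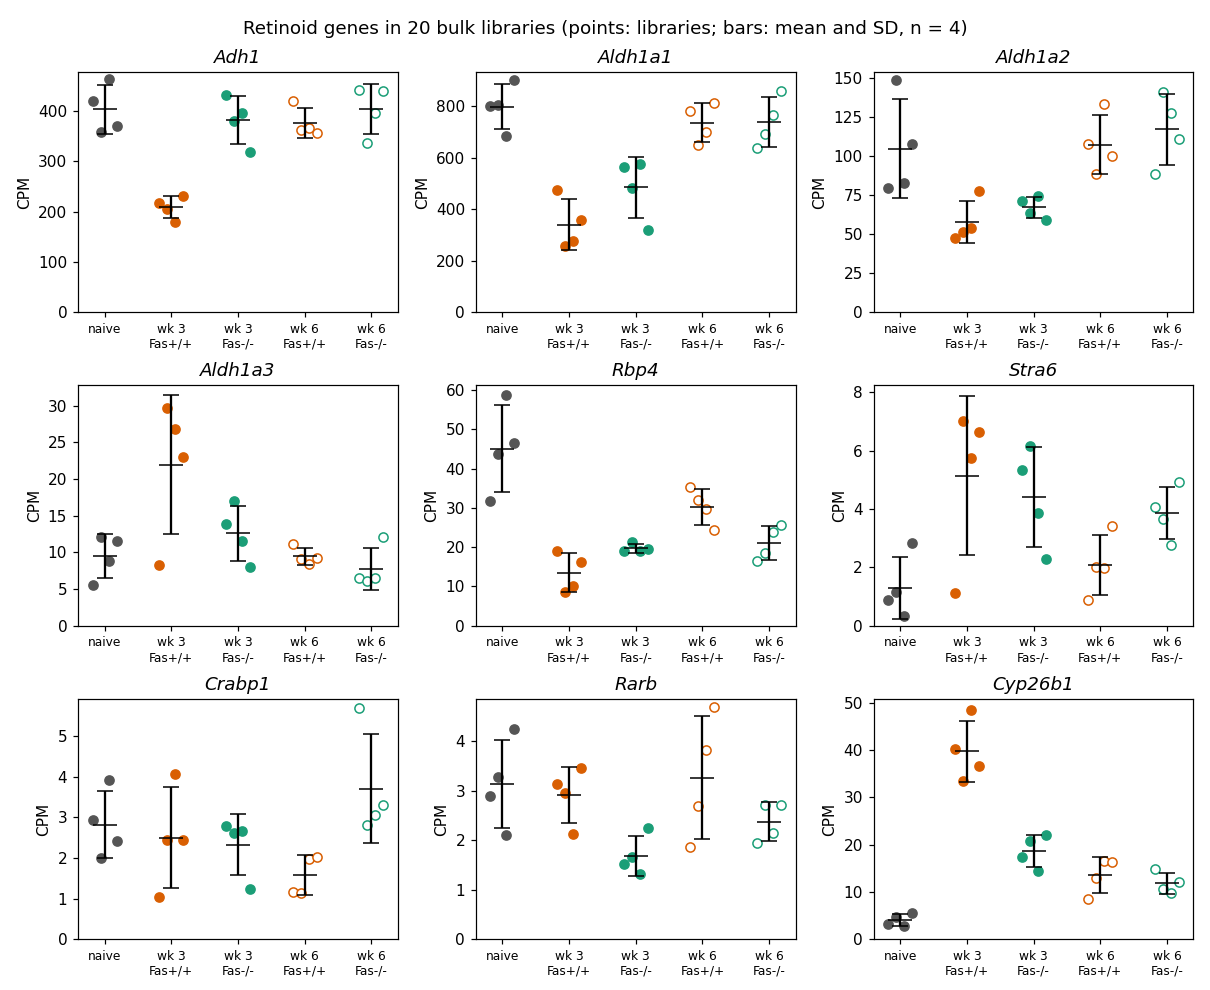
Level of the 9 genes in CPM (y axis, from 0) in the 20 bulk libraries by group (x axis), with the mean and SD of each group of 4. Adh1, Aldh1a1, Aldh1a2 and Rbp4 are lowest in week 3 Fas+/+ mice, where Cyp26b1 is highest, from 33.5 to 48.6 CPM.

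At 3 weeks after bleomycin, Aldh1a1, Aldh1a2 and Rbp4 stood below the naive libraries and Cyp26b1 above them in both genotypes, and Adh1 stood below them in Fas+/+ mice and overlapped with them in Fas-/- mice. Adh1 stood at 421, 359, 464 and 371 CPM in the naive libraries, at 218, 205, 179.9 and 231 in week 3 Fas+/+ libraries, and at 433, 380.3, 397 and 318 in week 3 Fas-/- libraries. All 4 Fas+/+ libraries lay below every naive and every Fas-/- library, while Fas-/- and naive libraries overlapped. The log2 difference from naive was -0.95 ± 0.11 (SE) in Fas+/+ and -0.08 ± 0.11 in Fas-/- mice, and the difference of Fas-/- from Fas+/+ was 0.87 ± 0.11, or 1.83 times by group means. These are the values Adh1 was chosen on. Summed levels of 8 lipofibroblast markers ran from 16020 to 19940 CPM in naive, from 6152 to 10460 in week 3 Fas+/+ and from 9856 to 13250 in week 3 Fas-/- libraries. Unlike Adh1, the sums in Fas-/- libraries lay below every naive library and overlapped with Fas+/+. Among naive and week 3 libraries, median sums of vascular smooth muscle, pericyte and mesothelial markers were also highest in naive and lowest in Fas+/+. The median sum of Col14a1 fibroblast markers was lowest in week 3 Fas-/- libraries (3254 CPM, against 3540 in week 3 Fas+/+ and 4625 in naive). That of profibrotic fibroblast markers was lowest in naive libraries. The part of such markers in the Adh1 difference was not tested. In bulk samples, fewer cells of a type and less RNA per cell cannot be told apart.

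Cyp26b1, the retinoic acid hydroxylase, stood at 3.19, 4.71, 2.82 and 5.41 CPM in naive libraries, at 40.3, 33.5, 48.6 and 36.7 CPM in week 3 Fas+/+ libraries and at 17.3, 20.7, 14.5 and 22.1 CPM in week 3 Fas-/- libraries. The 3 groups did not overlap, with naive lowest and Fas+/+ highest. Group means were 9.86 times the naive mean in Fas+/+ and 4.62 times in Fas-/- mice, the log2 differences from naive were 3.30 ± 0.24 and 2.20 ± 0.24, and that between genotypes was -1.09 ± 0.22. Without the library with the most endothelial markers of each bleomycin group (4 libraries, called endothelial-high), the log2 differences of Cyp26b1 from naive were 3.28 and 2.10 and that between genotypes was -1.18. The week 3 libraries that were left had endothelial sums of 1751 to 2371 in Fas+/+ and 464 to 814 in Fas-/- mice. Leaving libraries out therefore did not even out endothelial content, and nothing about its part is read from these values. At week 3 the endothelial marker sum was also higher in all Fas+/+ than in Fas-/- libraries except for Fas-/- replicate 4, where it reached 6321 while Cyp26b1 stood at 22.1 CPM, the highest value of that group. Its part in the Cyp26b1 difference was not tested.

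**Figure D2:**
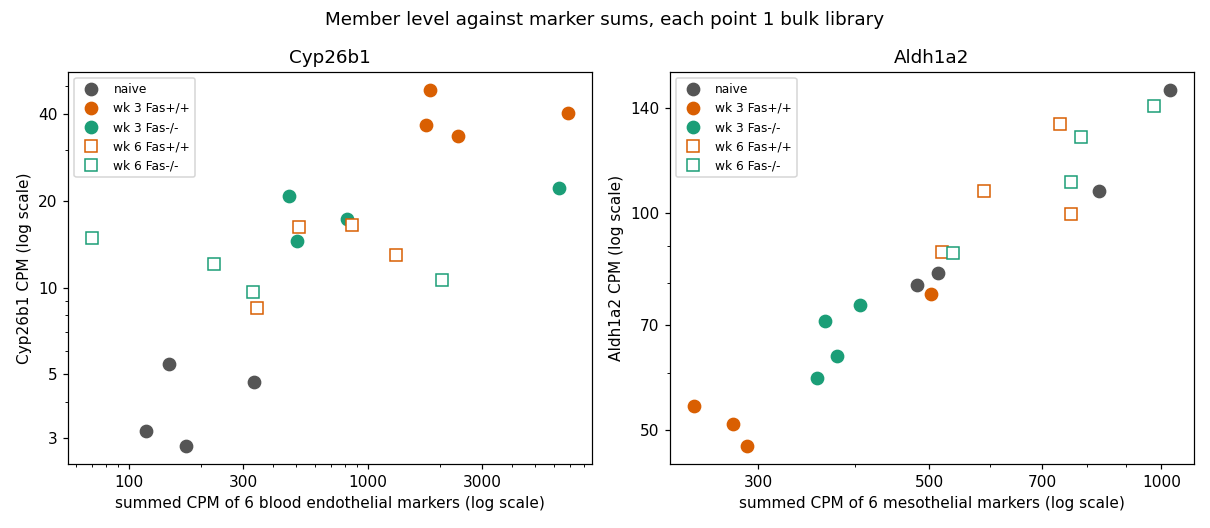
Cyp26b1 CPM against the summed CPM of 6 blood endothelial markers (left) and Aldh1a2 CPM against the summed CPM of 6 mesothelial markers (right), log scales, each point 1 bulk library. Week 3 Fas-/- replicate 4 has an endothelial sum of 6321 and Cyp26b1 at 22.1 CPM, the highest value of its own group and below every week 3 Fas+/+ library, and Aldh1a2 is mostly higher in libraries with higher mesothelial sums.

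The retinaldehyde dehydrogenases differed in direction at week 3. Aldh1a1 stood at 801, 804, 687 and 901 CPM in naive, at 474, 256, 275 and 357 in week 3 Fas+/+ and at 562, 484, 577 and 319 in week 3 Fas-/- libraries. Every week 3 library lay below every naive library, with log2 differences of -1.23 ± 0.19 and -0.72 ± 0.19, and the genotypes overlapped. Their difference was 0.51 ± 0.19, or 0.86 without the 4 endothelial-high libraries. Aldh1a2 stood at 79.5, 148, 82.7 and 107 CPM in naive, at 47.5, 51.0, 54.0 and 77.3 in week 3 Fas+/+ and at 70.8, 63.3, 74.5 and 59.1 in week 3 Fas-/- libraries, again below naive without overlap in each genotype. Aldh1a3 had the opposite sign in Fas+/+ mice, at 8.29, 29.6, 26.9 and 22.96 CPM against 5.51, 12.02, 8.79 and 11.5 in naive, and stood at 13.8, 16.9, 11.6 and 7.95 in Fas-/- mice. Replicates 2, 3 and 4 of Fas+/+ lay above every naive library, and replicate 1, with the low profibrotic and high endothelial sums, lay among them.

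Rbp4, the retinol carrier, stood at 31.7, 43.7, 58.7 and 46.4 CPM in naive, at 19.1, 8.61, 10.0 and 16.1 in week 3 Fas+/+ and at 18.9, 21.3, 18.98 and 19.6 in week 3 Fas-/- libraries. No week 3 library reached the lowest naive library, and the naive mean was 3.36 times the Fas+/+ mean. Stra6, the receptor, stood at 0.862, 1.16, 0.334 and 2.81 CPM in naive, at 1.13, 7.004, 5.76 and 6.64 in week 3 Fas+/+ and at 5.33, 6.17, 3.85 and 2.29 in week 3 Fas-/- libraries. Its lowest week 3 values were those of the same pair of libraries, Fas+/+ replicate 1 and Fas-/- replicate 4, that were lowest in profibrotic markers. Crabp1 ran from 2.00 to 3.92 CPM in naive, from 1.03 to 4.08 in Fas+/+ and from 1.22 to 2.80 in Fas-/- libraries, and all groups overlapped. Rarb, at 2.10 to 4.24 CPM in naive and 2.13 to 3.45 in Fas+/+ libraries, stood at 1.51, 1.66, 1.31 and 2.24 CPM in Fas-/- libraries, and only replicate 4 overlapped with Fas+/+. The group means of Rarb, the gene with the motif pair in its promoter window, were 3.13 ± 0.890 CPM in naive, 2.92 ± 0.564 in week 3 Fas+/+ and 1.68 ± 0.4002 in week 3 Fas-/- mice (SD, n = 4).

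Counted over the family, 5 of 9 members did not overlap between week 3 Fas+/+ and naive libraries (Adh1, Aldh1a1, Aldh1a2 and Rbp4 lower, Cyp26b1 higher). Of all genes 32.2% did not overlap there, 15.5% lower and 16.7% higher. Between week 3 Fas-/- and naive libraries 4 of 9 did not overlap (Aldh1a1, Aldh1a2 and Rbp4 lower, Cyp26b1 higher), against 31.1% of all genes, 14.9% lower and 16.2% higher. Between genotypes at week 3, Adh1 (higher in Fas-/-) and Cyp26b1 (lower) did not overlap, against 3.92% of all genes, 2.49% higher and 1.44% lower. Since these comparisons chose members, nothing is read from the counts. The median log2 difference over the 9 members was -0.20 in Fas+/+ and -0.27 in Fas-/- mice against naive, beside 0.01 and 0.02 over all genes tested. Both medians are the values of Crabp1, whose libraries overlapped. The members ran from -1.74 to 3.30 in Fas+/+ and from -1.19 to 2.20 in Fas-/- mice. No shift of the family is read from these medians.

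The rule that picked the members used no week 6 library, but members and gene lists were chosen with earlier results of these data known. The week 6 tests are therefore not fully independent of the choice of genes. Between genotypes at week 6, 0 of 9 members passed an adjusted p of 0.05 in edgeR, where 0.0507% of all genes did. DESeq2 also called 0 members, where it called 170 of 15703 genes, and 2 members had an unadjusted p under 0.05. No share of all genes under that unadjusted threshold is given, so nothing is read from this count or from like counts below. The largest difference was in Crabp1, the retinoic acid binding protein, at 1.17, 1.14, 1.98 and 2.01 CPM in Fas+/+ and at 5.69, 2.82, 3.05 and 3.30 in Fas-/- libraries. All 4 Fas-/- libraries lay above all 4 Fas+/+ libraries, as was so for 3.47% of all genes in this direction and 6.81% in either. The log2 difference was 1.24 ± 0.37 (2.36-fold higher), with an exact two-sided permutation p of 0.0286, the smallest that 4 against 4 libraries can give, and an edgeR adjusted p of 0.249.

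Rbp4 had the second unadjusted p under 0.05 at week 6. It stood at 35.3, 31.9, 29.7 and 24.4 CPM in Fas+/+ and at 16.3, 18.5, 23.8 and 25.7 in Fas-/- libraries, so that Fas-/- replicate 4 alone reached into the Fas+/+ range, and the log2 difference was -0.52 ± 0.22 (edgeR adjusted p = 0.52, exact permutation p = 0.0571). Stra6 stood at 0.888, 2.02, 1.98 and 3.42 CPM in Fas+/+ and at 4.07, 3.64, 2.77 and 4.92 in Fas-/- libraries, with a log2 difference of 0.90 ± 0.55 (edgeR adjusted p = 0.791). Adh1, at 421, 363, 366 and 357 CPM in Fas+/+ and at 443, 337, 396 and 439.7 in Fas-/- libraries, overlapped between genotypes. Its log2 difference was 0.10 ± 0.11 with a 95% interval from -0.12 to 0.32 (edgeR adjusted p = 0.955). For Cyp26b1, at 8.52, 12.95, 16.5 and 16.3 CPM in Fas+/+ and at 14.9, 10.7, 9.65 and 12.1 in Fas-/- libraries, the log2 difference was -0.20 ± 0.22 with an interval from -0.63 to 0.24 (edgeR adjusted p = 0.953). Aldh1a1, Aldh1a2, Aldh1a3 and Rarb had log2 differences from -0.45 to 0.12 with edgeR adjusted p values from 0.782 to 1, all with overlapping libraries.

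**Figure D3:**
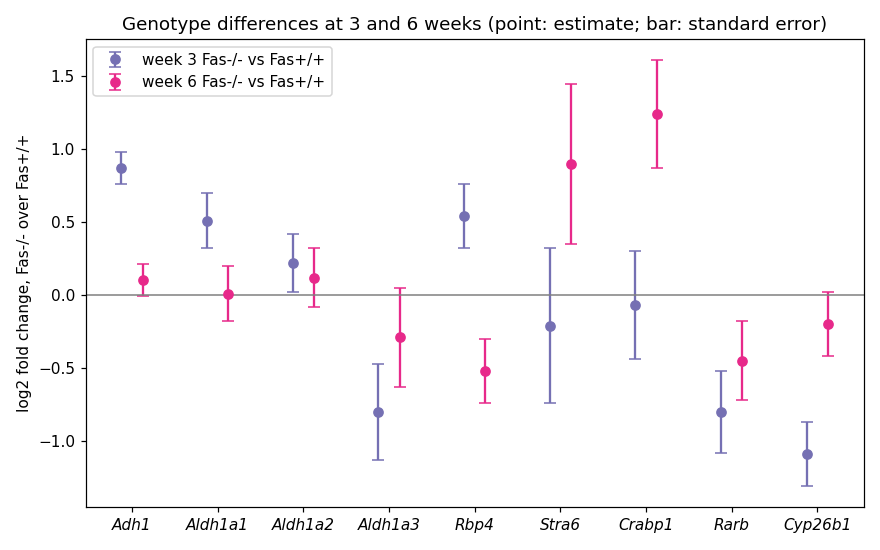
Log2 fold change of Fas-/- over Fas+/+ (y axis) for the 9 genes at 3 and at 6 weeks, with standard errors. Adh1 is at 0.87 at week 3 and 0.10 at week 6, Cyp26b1 at -1.09 and -0.20, and Crabp1 is the highest point at week 6 (1.24). The week 3 points are a description.

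Whether the genotype difference changed with time was asked with the interaction of genotype and week. None of the 7 members tested passed in edgeR, where 0.00634% of all genes did, and 0 passed in DESeq2, where 100 of 15703 genes did. An unadjusted p under 0.05 was seen for 2 members, Rbp4 (-1.07 ± 0.31, edgeR adjusted p = 0.297) and Crabp1 (1.31 ± 0.52, 0.528). Rbp4 was the 1 member that passed when week 3 Fas+/+ replicate 1 was left out (-1.29, edgeR adjusted p = 0.0485). Without the 4 libraries that had the most endothelial markers within their own bleomycin groups Aldh1a1 passed, at -0.89 with an adjusted p of 0.0335. For Adh1 and Cyp26b1, chosen on week 3, the interaction was -0.77 ± 0.16 and 0.89 ± 0.31 and carries no test.

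At week 6 every member except Cyp26b1 overlapped the naive libraries in Fas+/+ mice, and every member except Cyp26b1 and Rbp4 in Fas-/- mice, where 16.6% and 16.1% of all genes did not overlap with naive. In Fas+/+ mice 0 of 8 members tested differed from naive, where 5.31% of all genes did. DESeq2 called 0 members, where it called 1423 of 15703 genes, and Rbp4 and Crabp1 had an unadjusted p under 0.05. In Fas-/- mice 1 of 8 differed, where 6.48% of all genes did: Rbp4 fell by 1.10 ± 0.22 on the log2 scale (edgeR adjusted p = 0.00665), with no Fas-/- library above 25.7 CPM and no naive library under 31.7, and it passed with any single library left out. In Fas+/+ mice Rbp4 differed from naive by -0.57 ± 0.22 (edgeR adjusted p = 0.148), with overlap. The naive libraries are shared by these comparisons. Stra6 was 1.57 ± 0.56 higher in Fas-/- mice than in naive mice on the log2 scale without passing (edgeR adjusted p = 0.112), and it passed in DESeq2 (0.0449), without the 4 endothelial-high libraries (0.0432) and without naive replicate 4 (2.27, adjusted p = 0.0371). Cyp26b1 stayed above every naive library in both genotypes, by 1.74 ± 0.23 in Fas+/+ and 1.55 ± 0.23 in Fas-/- mice on the log2 scale, values that share the naive libraries it was chosen on and have no test.

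From week 3 to week 6 in Fas+/+ mice, 4 of 7 members tested changed, where 22.9% of all genes did. Aldh1a1 rose by 1.11 ± 0.19 (edgeR adjusted p = 0.000697), Rbp4 by 1.17 ± 0.23 (0.00154) and Aldh1a2 by 0.90 ± 0.20 (0.00388) on the log2 scale, each with every week 6 library above every week 3 library (23.5% of all genes did not overlap). Aldh1a1 stood at 784, 649, 699 and 814 CPM and Aldh1a2 at 107, 88.2, 133 and 99.8 CPM in the week 6 Fas+/+ libraries, which overlap the naive values. The lipofibroblast marker sum was also higher at week 6 without overlap, at 12190 to 15320 CPM in Fas+/+ libraries against 6152 to 10460 at week 3, and ran from 14130 to 16440 in week 6 Fas-/- libraries. Its part in the Aldh1a1 change was not tested. Aldh1a3 fell by 1.21 ± 0.34 (edgeR adjusted p = 0.0157), to 11.1, 9.04, 8.43 and 9.22 CPM, and did not pass without week 3 Fas+/+ replicate 2 (adjusted p = 0.0601). Stra6 differed by -1.31 ± 0.55 (edgeR adjusted p = 0.0923) and passed without week 3 Fas+/+ replicate 1 (-1.65, adjusted p = 0.0149). Adh1 was 0.85 ± 0.11 higher and Cyp26b1 1.55 ± 0.22 lower at week 6 than at week 3, as a description. The week 3 libraries of this comparison are those compared with naive above, and Adh1 and Cyp26b1 were picked on them. The tests between weeks are therefore not separate support for the week 3 differences. The same holds for the Fas-/- comparison below and for the interaction.

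From week 3 to week 6 in Fas-/- mice, 1 of 7 members tested changed, where 9.02% of all genes did. Aldh1a2 rose by 0.80 ± 0.20 (edgeR adjusted p = 0.0202), to 88.1, 141, 128 and 111 CPM, above every week 3 library (17.4% of all genes did not overlap). Its adjusted p in edgeR was 0.0503 without the 4 endothelial-high libraries and 0.0587, 0.0511 and 0.0645 without week 3 Fas-/- replicates 2 and 4 and week 6 Fas-/- replicate 3. Aldh1a1, at 638, 695, 768 and 860.2 CPM, differed by 0.61 ± 0.19 without passing (edgeR adjusted p = 0.0512), and it passed in DESeq2 (0.019), without the endothelial-high libraries (0.0228) and without week 3 Fas-/- replicate 3 (0.0419). Rbp4 differed by 0.10 ± 0.22 (edgeR adjusted p = 0.82) and stayed between 16.3 and 25.7 CPM, near its week 3 values of 18.9 to 21.3. Adh1 overlapped the naive libraries at both times in Fas-/- mice, with a difference between the times of 0.08 ± 0.11.

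Aldh1a2 moved with mesothelial markers. The sum of 6 mesothelial markers, among them Msln, Upk3b and Wt1, ran from 482 to 1025 CPM in naive, from 247 to 503 in week 3 Fas+/+, from 358 to 406 in week 3 Fas-/-, from 519 to 765 in week 6 Fas+/+ and from 537 to 977 in week 6 Fas-/- libraries. The library with the highest Aldh1a2 in the naive group, replicate 2 at 148 CPM, also had the highest mesothelial sum (1025), and so did week 6 Fas-/- replicate 2 (141 and 977). In week 6 Fas+/+ mice the highest Aldh1a2 was in replicate 3 (133 CPM, sum 738) and the highest sum in replicate 4 (765, with Aldh1a2 at 99.8 CPM), and in week 3 Fas+/+ and Fas-/- mice the library highest in 1 was also highest in the other. No marker of the list was at 0 in all libraries of a group. The part of these cells in the Aldh1a2 changes was not tested.

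The genes most like each member over the 20 libraries were found by Pearson's r of log2 CPM, which takes in group differences and within-group spread, and r after removing group means is given second. Aldh1a2 was most like Cldn15 (0.957, 0.842), Rspo1 (0.956, 0.869) and Cyp2s1 (0.95, 0.852), and Rspo1 is on the mesothelial list. Aldh1a1 was most like Ms4a4d (0.973, 0.872), Angpt1 (0.966, 0.827) and Gm4956 (0.965, 0.905), and Adh1 like Astn2 (0.923, 0.62), the lipofibroblast marker Col13a1 (0.915, 0.641) and Gpam (0.906, 0.479). Rbp4 was most like Clec3b (0.952, 0.79), Gm6277 (0.943, 0.735) and Adhfe1 (0.943, 0.805). Stra6 was most like Frmpd3 (0.941, 0.898), the microfibril gene Fbn2 (0.932, 0.938) and Ptprv (0.931, 0.901), and Aldh1a3 like Fbln2 (0.92, 0.878), Anln (0.918, 0.882) and Eef1b2 (0.916, 0.89). Cyp26b1 was most like the lymphangiogenic growth factor gene Vegfc (0.948, 0.728), Chst11 (0.946, 0.609) and Zdhhc20 (0.941, 0.136), and the last of these followed the groups but hardly the spread within them. Rarb was most like Smpd3 (0.871, 0.763), Lrrn4cl (0.848, 0.78) and Fcho1 (0.844, 0.719), and Crabp1 like Ptger3 (0.83, 0.87), Bace1 (0.822, 0.845) and Itgb8 (0.815, 0.924). The first values of Rarb and Crabp1 were lower than those of the other members, which does not hold for the second values of either. These values describe 20 libraries that share groups and composition.

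The wider retinoid pathway was described with a list of 46 other genes, of which 33 passed the filter on low counts. In week 3 Fas+/+ against naive mice 4 rose and 12 fell, where 22.1% of all genes rose and 19.2% fell (41.3% in all). The retinol esterifying enzyme Lrat fell by 2.22 ± 0.30 (edgeR adjusted p = 3.52e-05), from a mean of 169 ± 39.2 to 36.2 ± 14.9 CPM (SD, n = 4), and Rarres2, a retinoid-responsive gene that encodes chemerin, fell by 1.02 ± 0.12 (6.74e-06). The alcohol dehydrogenase Adh7 fell by 1.19 ± 0.23 (edgeR adjusted p = 0.00075). The 3 with the smallest adjusted p among those that rose were the retinol dehydrogenase Rdh10 (0.61 ± 0.23, edgeR adjusted p = 0.0374), the receptor Rara (0.53 ± 0.13, 0.00394) and Crabp2, which went from 0 to 2 reads in each naive library to 1, 20, 20 and 22 reads. Crabp2 passed the filter on low counts through bleomycin libraries alone, so it is given by its reads and its calls are not support for a direction of the list. The median log2 difference of the 33 genes was -0.19, beside 0.01 over all genes.

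In week 3 Fas-/- against naive mice 2 of the 33 rose and 8 fell, where 17.2% of all genes rose and 14.8% fell. Lrat fell by 1.35 ± 0.29 (edgeR adjusted p = 0.00256), Rarres2 by 0.62 ± 0.12 (0.000798) and the retinol dehydrogenase Rdh5 by 0.73 ± 0.14 (0.0012), and Nrip1 rose (0.26 ± 0.08, 0.0169). The other gene called higher was Crabp2, at 9, 11, 12 and 3 reads. Between genotypes 0 of 33 were called at week 3, where 0.171% of all genes were (Adh7 stood at 1.12 ± 0.23 with an edgeR adjusted p of 0.0583). At week 6 edgeR called 0 of 33, where it called 0.0507% of all genes, and 4 had an unadjusted p under 0.05. DESeq2 called 1 of the list at week 6, where it called 170 of 15703 genes. From week 3 to week 6 in Fas+/+ mice 9 rose and 3 fell, 12 of 33 beside the 22.9% of all genes given above, with Lrat up by 2.19 ± 0.30 (edgeR adjusted p = 0.000176), Rarres2 up by 0.92 ± 0.12 (0.00011), the retinoid X receptor gene Rxrg up by 0.99 ± 0.27 (0.0128) and Rara down (-0.43 ± 0.13, 0.0259), while Crabp2, called lower, had 4, 1, 1 and 3 reads at week 6. In Fas-/- mice 2 rose and 0 fell, where 4.48% of all genes rose and 4.54% fell (Rarres2 by 0.57 ± 0.12, adjusted p = 0.00832, and Rdh5 by 0.49 ± 0.15, 0.0445). Against naive, the corepressor Ncor1 alone of the 33 was called at week 6 in Fas+/+ mice, where it fell by 0.32 ± 0.07 (edgeR adjusted p = 0.00991), while 3.57% of all genes rose and 1.74% fell. In week 6 Fas-/- mice Ncor1 fell by 0.24 ± 0.07 (edgeR adjusted p = 0.0421), and the nuclear receptor cofactor Nrip1 rose (0.37 ± 0.08, 0.00903), where 3.66% of all genes rose and 2.81% fell. Crabp2 was also called higher there, at 11, 7, 1 and 18 reads. Of these 3 calls 1 was left with no filter on low counts or without any 1 of the naive libraries or week 6 Fas-/- replicates 2 or 4. The list's median at week 6 was -0.01 and -0.06, beside 0.00 and 0.01 over all genes.

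Single cells show which classes of cells carried the transcripts, with 1 library per condition and therefore no test. The files held 13900 barcodes, and 12059 cells remained after filters. Barcodes recurred between libraries: 1502 cells carried a barcode kept in more than 1 library. In the naive library this was 344 of 603 cells (57.1%), with a median of 12178 unique molecular identifiers (UMIs, counted transcripts), while in the bleomycin libraries it was 5.99% to 14.3% of cells with medians from 759 to 1130 UMIs. The same 250 barcodes had a median of 14103 UMIs in the naive and 822 in the week 3 Fas-/- library. Values are therefore given also without shared barcodes where that matters, and the naive library is used little. Levels are UMIs per 1000000 UMIs of the class (UMI CPM) with exact 95% Poisson intervals, which cover counting error only. Cells were clustered without the members and grouped in classes, named "-like" by marker lists or otherwise by leading genes. Class levels describe the cells that were clustered, and Rbp4 is itself among the 10 leading genes of the clusters named below by Clec11a and Gdf10 and by Adh7 and Apod. Of the marker lists, that of lipofibroblasts was highest in the Clec11a and Gdf10 cluster (5 of 8 markers raised). The same held for a cluster led by Saa3 and Lcn2 (7 of 8) and for a cluster led by A230057D06Rik (4 of 8). Their mean log2 ratios to other cells were 0.59, 0.77 and 0.68, against 1.94 and 1.33 in the clusters called lipofibroblast-like. Cells with lipofibroblast markers are therefore not confined to the lipofibroblast-like class.

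**Figure D4:**
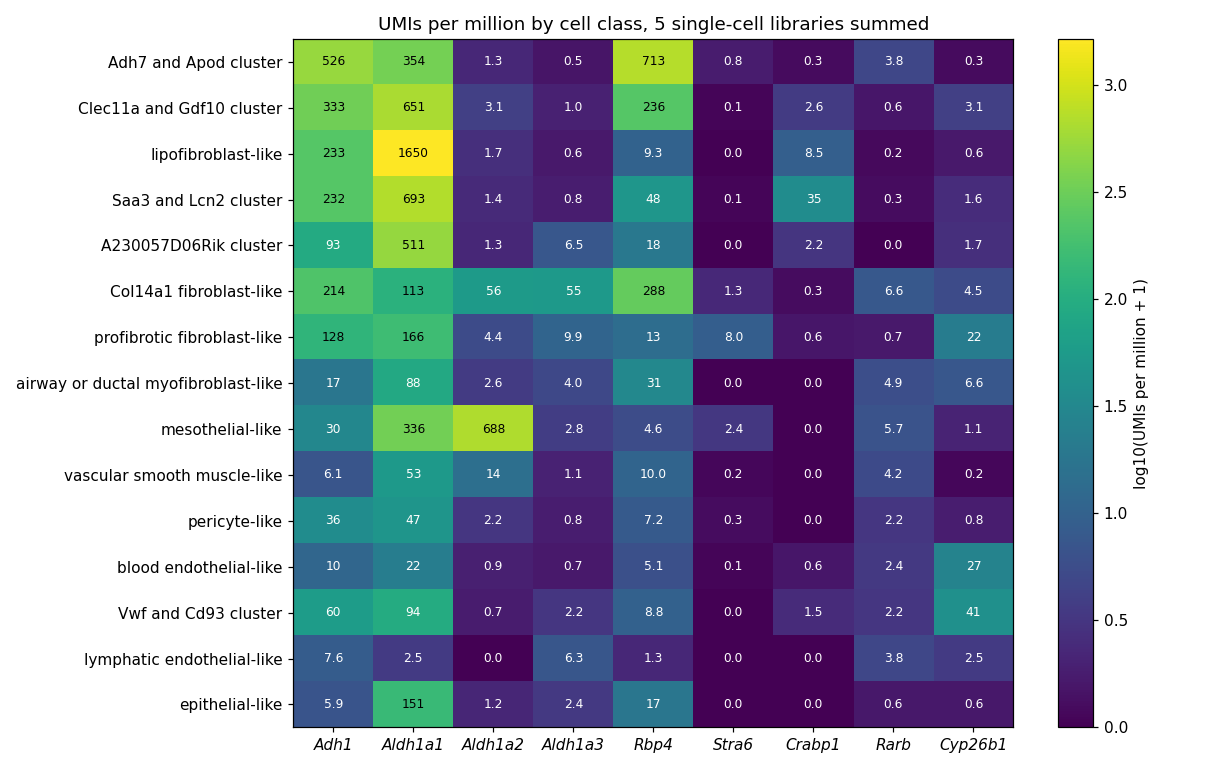
Level of the 9 genes (columns, in UMI CPM, 5 libraries summed) in 15 of the 19 cell classes (rows), on a log10 colour scale with the value in each cell. Aldh1a1 peaks in lipofibroblast-like cells (1650), Aldh1a2 in mesothelial-like cells (688) and Stra6 in profibrotic fibroblast-like cells (8.0).

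The oxidizing enzymes were divided among classes. Adh1 was highest in a small cluster led by Adh7 and Apod (526 UMI CPM, interval 503 to 549), then in a cluster led by Clec11a and Gdf10 (333, 325 to 341), which held 33.7% of its UMIs, and in lipofibroblast-like cells (233, 225 to 240). It was seen in 83.5% of cells of the Clec11a and Gdf10 cluster (median depth 11867 UMIs) and in 4.20% of vascular smooth muscle-like cells (7608), which serve here as background. Aldh1a1 was highest in lipofibroblast-like cells at 1650 (1629 to 1670), with 43.9% of its UMIs, against 21.97 (18.98 to 25.3) in blood endothelial-like cells. Most Aldh1a2 lay in mesothelial-like cells, which were 5.66% of all cells and held 88.5% of its UMIs, at 688 UMI CPM (671 to 706) and 638 without shared barcodes. Its next class was Col14a1 fibroblast-like cells at 55.9. Aldh1a3 was highest in the same Col14a1 fibroblast-like cells (54.7, 49.6 to 60.3), with 55.7% of its UMIs, and profibrotic fibroblast-like cells held another 25.9% at 9.89 UMI CPM.

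Transport, breakdown and receptor genes were also divided among classes. Rbp4 was highest in the Adh7 and Apod cluster (713, 687 to 740), followed by Col14a1 fibroblast-like cells (288) and the Clec11a and Gdf10 cluster (236), which held 43.1% of its UMIs, and stood at 5.12 in blood endothelial-like cells. Stra6 was rare, with 195 UMIs in all, and 80.0% of them lay in profibrotic fibroblast-like cells (8.04, 6.83 to 9.40), while 0 of 1789 lipofibroblast-like cells had a UMI (0 to 0.238 UMI CPM). Crabp1 had 63.0% of its UMIs in a cluster led by the acute-phase genes Saa3 and Lcn2 (35.4, 31.9 to 39.1) and 21.5% in lipofibroblast-like cells (8.46). Lipofibroblast markers were also raised in the Saa3 and Lcn2 cluster. Cyp26b1 had most of its UMIs in 2 kinds of cells: profibrotic fibroblast-like cells (21.5, 19.5 to 23.7, 45.9% of UMIs) and endothelial cells, namely blood endothelial-like cells (26.8, 23.4 to 30.4, 25.8% of UMIs) and a shallow cluster led by Vwf and Cd93 (40.6, 30.6 to 52.8, 6.04% of UMIs). The Clec11a and Gdf10 cluster held another 7.03% at 3.12 UMI CPM, Col14a1 fibroblast-like cells 3.74% and airway or ductal myofibroblast-like cells 3.08%. It was seen in 10.4% of blood endothelial-like cells (median depth 5457) and in 0.127% of vascular smooth muscle-like cells. Rarb was sparse everywhere, at 6.64 (4.93 to 8.75) in Col14a1 fibroblast-like and 5.67 (4.18 to 7.52) in mesothelial-like cells, with overlapping intervals, and 0.194 in lipofibroblast-like cells, apart from 8 UMIs in a 45-cell cluster led by Slc6a2 and Selp.

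Many cells held more than 1 member. Of 4919 cells with an Adh1 UMI, 87.0% also had an Aldh1a1 UMI, and of 1990 cells with an Rbp4 UMI, 75.8% also had Adh1. Of all 12059 cells, 6874 had an Aldh1a1 UMI and 4919 an Adh1 UMI. Of 99 cells with Stra6, 8 had Rbp4 and 15 had Cyp26b1. Deep cells show more genes, so these shares are a description.

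Across libraries, bulk and single-cell values of Adh1 are set side by side here, with no test. Adh1 stood at 183 UMI CPM (178 to 188) in week 3 Fas+/+ and at 187 (181 to 194) in week 3 Fas-/- cells, against group means of 209 ± 21.9 and 382 ± 48.3 CPM in bulk (SD, n = 4). In the 3 classes given here the direction was mixed: the Clec11a and Gdf10 cluster had 323 (308 to 338) in Fas+/+ and 276 (260 to 293) in Fas-/- cells, lipofibroblast-like cells 191 (179 to 204) and 239 (221 to 257), and Col14a1 fibroblast-like cells 191 (173 to 210) and 187 (162 to 216). The Adh7 and Apod cluster, where Adh1 was highest, and the other classes are not among them. At week 6, Adh1 was higher in the Fas-/- than in the Fas+/+ library in each of these 3 classes, most in lipofibroblast-like cells (312, 293 to 331, against 204, 187 to 221). The week 6 Fas+/+ library held 26.1% blood endothelial-like cells, against 1.49% to 6.64% in the others, and its sum over all cells was lowest for Adh1 (126). The same library was highest for Cyp26b1 over all cells (14.3 UMI CPM, against 2.67 to 5.63), whereas in bulk the week 3 Fas+/+ group was highest.

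Within classes, Cyp26b1 in blood endothelial-like cells stood at 51.5 (39.1 to 66.5) in the week 3 Fas+/+ library and at 4.79 (0.987 to 13.99, 3 UMIs) in the week 3 Fas-/- library, and at 23.5 and 29.3 at week 6. In profibrotic fibroblast-like cells it stood at 17.99 (12.3 to 25.4) and 23.3 (16.8 to 31.4) at week 3 and at 31.8 (27.8 to 36.2) and 13.6 (11.2 to 16.3) at week 6 in Fas+/+ and Fas-/- cells. In the endothelial class the week 3 UMIs lay in 28 Fas+/+ and 2 Fas-/- cells, with median depths of 5793 and 3531 UMIs in the class. The intervals cover counting error in 1 library each, so nothing about genotype is read from their separation or overlap. Rbp4 in the Clec11a and Gdf10 cluster was at 252 (239 to 266) in week 3 Fas+/+ and 149 (138 to 162) in week 3 Fas-/- cells, while the bulk means were 13.5 and 19.7 CPM, and in the Adh7 and Apod cluster it was at 687 (638 to 739) and 888 (803 to 979). At week 6 Rbp4 over all cells was at 71.05 in Fas+/+ and 98.04 in Fas-/- cells, while the bulk means were 30.3 and 21.1 CPM. In the Clec11a and Gdf10 cluster it was at 246 (231 to 261) and 285 (271 to 300) at week 6. Col14a1 fibroblast-like cells had 245 (223 to 268) and 280 (256 to 306), and the Adh7 and Apod cluster 680 (630 to 733) and 657.5 (612 to 705). In naive Col14a1 fibroblast-like cells Rbp4 stood at 673 and, in the 6 cells without shared barcodes, at 96.0, so no naive level is read.

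**Figure D5:**
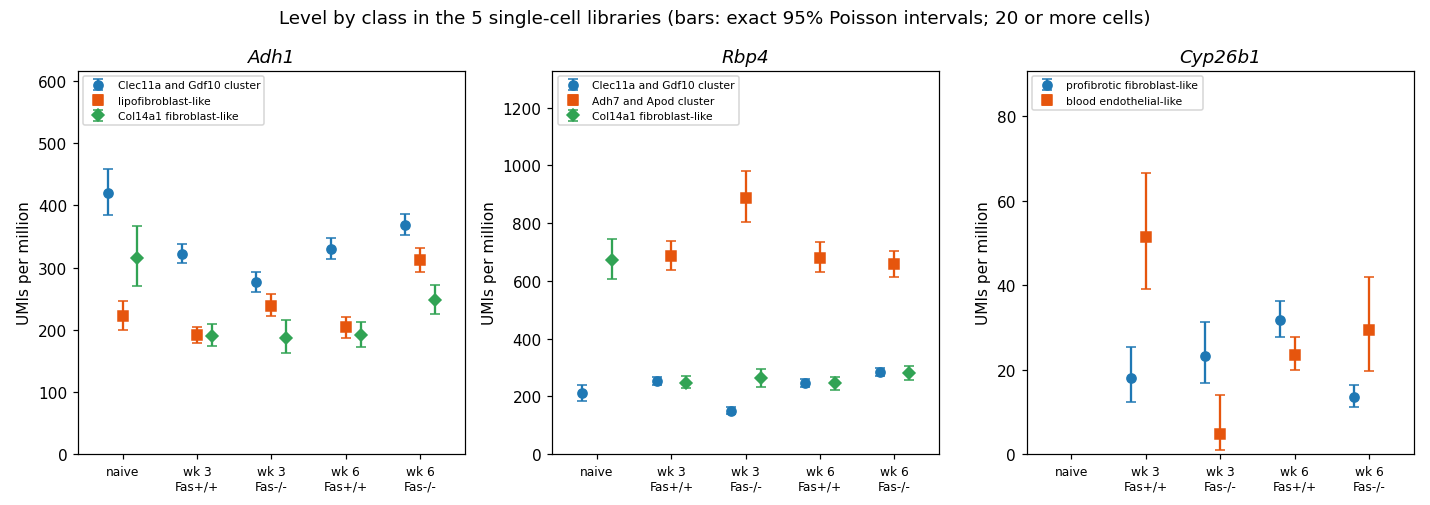
UMI CPM for Adh1, Rbp4 and Cyp26b1 (y axes, from 0) by class in the 5 single-cell libraries (x axis), with exact 95% Poisson intervals, for classes of 20 or more cells, naive values with shared barcodes included. Cyp26b1 in blood endothelial-like cells is at 51.5 in week 3 Fas+/+ and 4.79 in week 3 Fas-/- cells, and Adh1 in lipofibroblast-like cells is highest in week 6 Fas-/- cells (312).

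Aldh1a1 in lipofibroblast-like cells ran among the 5 libraries from 1531 (1471 to 1593) in naive to 1730 (1684 to 1778) in week 3 Fas-/- cells, with 1718 (1681 to 1756) in week 3 Fas+/+ cells, while its bulk group means ran from 340 to 798 CPM. Of the 165 naive cells of this class only 76 had an unshared barcode, so no naive level is read here either. Aldh1a2 in mesothelial-like cells was at 751 and 674 at week 3 and at 481 and 737 at week 6 in Fas+/+ and Fas-/- cells. In this class many barcodes were shared. Unshared were 94 of 153 and 105 of 176 cells at week 3 and 90 of 138 and 91 of 192 at week 6. No difference between these libraries is read. Crabp1 in the Saa3 and Lcn2 cluster was at 6.51 (3.64 to 10.7) in week 3 Fas+/+ and at 50.8 (39.0 to 65.0) in week 3 Fas-/- cells, and at 42.3 (35.2 to 50.3) and 42.9 (36.8 to 49.8) at week 6, with 33.3 in Fas+/+ cells at week 6 without shared barcodes. The cluster made up 3.67% of week 6 Fas+/+ and 6.79% of week 6 Fas-/- cells. These are shares of all cells, and blood endothelial-like cells made up 26.05% of the first and 5.98% of the second library. The part of the cluster in the bulk Crabp1 difference was not tested. Stra6 in profibrotic fibroblast-like cells stayed between 7.36 and 10.7 in the 4 bleomycin libraries, with overlapping intervals. Of the 46 pathway genes, Lrat was highest in lipofibroblast-like cells (208, 201 to 216) and Rarres2 in mesothelial-like cells (4323, 4279 to 4368), and 81.3% of the 75 Crabp2 UMIs lay in profibrotic fibroblast-like cells. Lipofibroblast-like cells held 35.0% of the Lrat UMIs, and Lrat is also among the leading genes of the Clec11a and Gdf10 cluster.

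Reads of some members may include other genes. In GENCODE vM21 (GRCm38) Stra6 (chr9:58063788-58153996, plus strand) overlaps Ccdc33 on the other strand and Gm16131 on its own strand, Rarb (chr14:16430839-16819156, minus strand) overlaps Top2b and Gm48162, and Adh1 (chr3:138260991-138290698, plus strand) overlaps the antisense gene Gm16559. Aldh1a1 overlaps C730002L08Rik and the pseudogene Gm6684, and Aldh1a2 the pseudogene Gm48124, all on the other strand. The strand setting of the counting is not given in the sources used here. Of the 50-base stretches of Aldh1a1 transcripts, 3.06% also occur in Aldh1a7, 1.15% of those of Aldh1a3 occur in other genes, nearly all in Casc4, and 0.18% of those of Adh1 occur in Adh6-ps1. Cyp26b1, Rbp4, Crabp1, Stra6, Rarb and Aldh1a2 share none with another gene.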

How the data were processed

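Bulk RNA-seq covered 20 libraries of sorted Lin- cells, and scRNA-seq 5 libraries. The raw gene counts deposited by the authors were used here, not their size-factor normalized table. They were made with skewer for quality trimming, HISAT2 for alignment (GRCm38) and htseq-count with an Ensembl gene set. The 5 deposited single-cell matrices held UMI counts from Cell Ranger on GRCm38. The members and gene lists were chosen with earlier results of these data known.

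Counts were tested in R 4.3.3 with edgeR 4.0.16 (quasi-likelihood test, TMM normalization, filterByExpr, all 5 groups in 1 fit, limma 3.58.1) with Benjamini-Hochberg adjustment over all 15773 genes and a call at an adjusted p of 0.05, after tests on simulated data. Exact permutation tests were two-sided. DESeq2 1.42.0, RLE normalization, no filter, other samples in the fit, a replicate block and libraries left out were the alternatives. Replicates were individual animals per the study's methods, although the labels do not tie a library to a mouse. The interaction of Cyp26b1, planned as a test, shares the week 3 libraries it was picked on and is a description. Named genes were the 9 members, the 3 pathway genes per direction with the smallest adjusted p, and the 3 genes most like each member. The values of 1 gene that this rule names are not reported here.

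Single-cell filters kept barcodes with 200 to 7500 genes whose mitochondrial share was no more than 20%, and the cells were clustered with Seurat 5.3.0 (3000 features, 20 components, resolution 0.8, members, pathway genes and markers left out). The 24 clusters formed 19 classes. No doublet caller was run, and the upper limit on genes was the only guard. Python 3.11.15, numpy 2.4.6, scipy 1.17.1 and pandas 2.3.3 gave levels, exact Poisson intervals and motif searches. Lengths came from GENCODE vM21, which is not the release used for counting.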

Additional observations from a re-analysis of the deposited data

Results flagged for a closer look

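A library stood far from the other 3 of its group in 4 of 45 combinations of member and group, where chance gives about 1 in 20. Adh1 was 421.4 CPM in week 6 Fas+/+ replicate 1, against 357.4 to 366.2 in the others. Aldh1a3 was 12.05 CPM in week 6 Fas-/- replicate 4, against 6.045 to 6.435. Crabp1 was 1.223 CPM in week 3 Fas-/- replicate 4, against 2.626 to 2.798, and this library also had the high endothelial sum. Crabp1 was 5.691 CPM in week 6 Fas-/- replicate 1, against 2.818 to 3.295, and without any single week 6 library the edgeR adjusted p of its genotype difference ran from 0.247 to 0.693.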

How the results depend on the processing

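Depth limits Stra6, Crabp1 and Rarb, at a few CPM in bulk and 99 to 233 cells with a UMI. Of the members' tested values, 392 of 424 kept their direction and side of the threshold with 1 library left out, and 263 of 276 did under the other alternatives. Of the week 3 values, which have no test, 209 of 216 and 53 of 54 kept their sign.

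DESeq2 called 1 pathway gene between genotypes at week 6 (0 in edgeR), and 2 members in week 6 Fas-/- against naive and in week 6 against week 3 in Fas-/- mice (1 each in edgeR). Without the 4 endothelial-high libraries 1 pathway gene was called between genotypes at week 6, 2 members in week 6 Fas-/- against naive and 1 in the interaction. With no filter on low counts 1 pathway gene was called in week 6 Fas-/- against naive (3 with it). The causes were not tested.

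Without the endothelial-high libraries the week 6 genotype difference of Aldh1a1 was -0.02 and that of Aldh1a2 -0.06, Adh1 in week 6 Fas-/- against naive was 0.07 and Crabp1 in week 3 Fas+/+ against naive 0.06 (-0.20 with them). Aldh1a3 in week 6 Fas+/+ against naive, 0.00 in the fit of all groups, was 0.02 without those libraries, 0.07 with the replicate block and 0.00 with only the compared groups.

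With 1 library left out, 1 to 2 members and 1 to 2 pathway genes were called in week 6 Fas-/- against naive. In week 6 against week 3, 3 to 5 members were called in Fas+/+ and 0 to 2 in Fas-/- mice, and 0 to 1 in the interaction. No share of all genes is given for these fits, so nothing is read from the counts. Single values changed sign as follows: Aldh1a1 between genotypes at week 6, -0.07 to 0.07. In week 6 Fas+/+ against naive, Aldh1a2 ran from -0.09 to 0.25, Aldh1a3 from -0.19 to 0.14 and Rarb from -0.17 to 0.25. Adh1 in week 6 Fas-/- against naive ran from -0.05 to 0.07. Between weeks, Rarb ran from -0.06 to 0.34 in Fas+/+ mice, and Rbp4 from -0.01 to 0.20 and Stra6 from -0.40 to 0.02 in Fas-/- mice. The interaction of Aldh1a2 ran from -0.27 to 0.03. At week 3, Crabp1 ran from -0.51 to 0.06 and Rarb from -0.24 to 0.09 in Fas+/+ against naive mice, and Crabp1 from -0.34 to 0.24 between genotypes.

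Same-numbered libraries of the genotypes did not deviate together throughout (r from -0.40 to 0.29 at week 3 and from 0.01 to 0.40 at week 6), so the numbers are not shown to pair them. With the replicate block 0 members were called between genotypes at week 6 (Crabp1 1.26, edgeR adjusted p = 0.283), and no member count changed.

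Over all genes, 15703 tested, DESeq2 called 170 between genotypes at week 6 (8 in edgeR), 164 at week 3 (27) and 100 in the interaction (1). It also called 1423 in week 6 Fas+/+ against naive (837), 1586 in week 6 Fas-/- against naive (1022) and 2082 between weeks in Fas-/- mice (1422). The block gave 0, 45 and 3 for the first 3 of these, and only the compared groups gave 1, 5 and 0, and 1595 in week 6 Fas+/+ against naive. No filter gave 891 between weeks in Fas-/- mice (1422), 729 in week 6 Fas-/- against naive and 3 in the interaction. With no filter 28881 genes were tested, and 15846 without the endothelial-high libraries. Without the endothelial-high libraries the counts were 117 and 1289 between genotypes at weeks 6 and 3, 250 in the interaction, 1525 and 1848 in week 6 Fas+/+ and Fas-/- against naive, and 5863 and 2650 between weeks in Fas+/+ (3615) and Fas-/- mice.

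Thinned to 3000 UMIs a cell, class levels were 1573 for Aldh1a1, 669.6 for Aldh1a2, 47.87 for Aldh1a3, 675.1 for Rbp4, 6.267 for Stra6 and 53.03 for Cyp26b1 in the class where each was highest.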
